A study of Homo sapiens with 48 samples.

Results

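Krüppel-like factors (KLFs) were described through 10 member genes, KLF2, KLF3, KLF4, KLF5, KLF6, KLF7, KLF9, KLF10, KLF11 and KLF13, on Affymetrix U133 Plus 2.0 arrays of BEAS-2B cells. A probe set was taken for a gene only if that gene was its single annotated symbol, and the one with the highest mean log2(signal + 16) over 48 arrays stood for the gene. All 10 of the 10 members lay above the level filter and belonged to the 14409 genes tested, out of 19775 genes with such a probe set. The lowest signal of any member on any array was 226 (KLF4), against a filter signal of 75.42, so no member passed through 1 group alone. The members had 32 single-symbol probe sets between them, of which 29 were above the filter.

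BEAS-2B is an immortalised line derived from normal human bronchial epithelium. Cells were given GS-5759 at 10 nM, indacaterol and GSK 256066 together at 10 nM each (Ind/GSK), or vehicle, for 1, 2, 6 or 18 h, which made 12 groups of 4 arrays. GS-5759 is a bifunctional molecule that stimulates the β2-adrenoceptor and inhibits phosphodiesterase 4 (PDE4), indacaterol a long-acting β2-adrenoceptor agonist and GSK 256066 a PDE4 inhibitor. All groups had first been grown for 3 days in keratinocyte serum-free medium with epidermal growth factor, pituitary extract and antibiotics, and then in the medium without those additions for 1 more day, per the labels' protocols. The labels number the replicates 1 to 4 without saying that they were separate cultures, so the p-values reflect spread among the samples as labelled, part of which may be technical. The comparisons ask how each treatment changed expression against vehicle at each time and whether the treatments differed from each other.

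KLFs are transcription factors that bind GC-rich and CACCC-box DNA through zinc fingers at the C terminus, which they share with the SP factors, while their N termini recruit different partners. KLF2, KLF4, KLF5, KLF6 and KLF7 act mainly as activators, KLF3 represses through the corepressor CtBP, and KLF9, KLF10, KLF11 and KLF13 bind the corepressor SIN3A. Several KLF genes are rapidly induced by serum, growth factors or hormones in many cell types, and KLF9 is a known glucocorticoid-induced gene. Stimulation of the β2-adrenoceptor raises cAMP and inhibition of PDE4 slows its breakdown. The rise in cAMP activates protein kinase A and the factor CREB, which binds cAMP response elements in promoters.

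Promoter windows of 250 bases before to 50 bases after the start site were given by RefSeq (GRCh38.p14) for 8 of the 10 members, 13 windows in all, and were searched on both strands for the full cAMP response element TGACGTCA and its core TGACG. The full element lay in 1.85% of all 35116 windows of that length and the core in 24.6%. Among the KLF windows 1 held the full element (KLF11, second of 2 start sites, 176 bases upstream), where the core matches once on each strand, overlapping. A core alone lay in the windows of KLF4 (247 and 210 bases upstream), KLF5 (second start site, 14 bases upstream) and KLF13 (56 bases upstream). Neither motif was in the windows of KLF2, KLF6, KLF7 or KLF9, which says only that these letters are not in these windows. KLF6 was the member called higher after both treatments in the plain fit, and KLF4 had the largest differences from vehicle. KLF11 changed in vehicle cells over time. The 250 bases upstream of the start are shown for these genes, for KLF11 at the second start site. Each is read 5′ to 3′ in the direction of the gene, and capitals mark a core or full match (CGTCA is the core on the opposite strand). KLF6 lies at chr10:3785210-3785459 (minus strand), KLF4 at chr9:107489770-107490019 (minus strand) and KLF11 at chr2:10043971-10044220 (plus strand).
KLF6: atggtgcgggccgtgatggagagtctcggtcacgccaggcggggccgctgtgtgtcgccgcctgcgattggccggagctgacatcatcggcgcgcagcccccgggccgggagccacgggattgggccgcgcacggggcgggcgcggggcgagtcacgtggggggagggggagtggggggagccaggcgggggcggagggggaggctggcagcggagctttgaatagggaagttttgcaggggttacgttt
KLF4: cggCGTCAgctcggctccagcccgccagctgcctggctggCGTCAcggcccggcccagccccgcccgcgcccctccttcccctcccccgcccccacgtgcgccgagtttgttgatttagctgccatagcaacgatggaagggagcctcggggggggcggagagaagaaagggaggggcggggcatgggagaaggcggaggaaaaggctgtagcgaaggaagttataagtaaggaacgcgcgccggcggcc
KLF11: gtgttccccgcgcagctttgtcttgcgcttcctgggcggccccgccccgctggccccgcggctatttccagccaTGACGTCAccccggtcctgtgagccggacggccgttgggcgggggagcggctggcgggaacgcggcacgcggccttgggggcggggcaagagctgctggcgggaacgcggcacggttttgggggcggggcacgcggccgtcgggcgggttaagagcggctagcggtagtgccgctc

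The 4 replicate numbers differed from each other on markers of the cell type. Of 7 epithelial markers 6 were above the filter and 7 of 7 averaged highest in the 12 arrays numbered 3. KRT5, a basal epithelial keratin, averaged 32811 there, against 195, 151 and 148 in the arrays numbered 1, 2 and 4. KRT19, another epithelial keratin, averaged 3338 there, against 60.9, 0.543 and 0.815, whereas KRT18 was within 7616 to 8131 in all. All 7 fibroblast or mesenchymal markers were above the filter, with means from 77.9 (PDGFRA) to 9035 (COL1A1), as were 4 of 5 leukocyte markers, with PTPRC at 28.4 below it, and 2 of 5 endothelial markers, with CDH5 at 12.5 below it. The arrays numbered 3 were spread equally over the 12 groups, so this difference does not run along the treatments. It does run along several KLF genes, so values without those arrays are given beside the treatment results they moved most. Same-numbered arrays deviated together from their group means in every comparison with vehicle, so that fits with the replicate number as a block (written "with the block" below) are given beside the plain fit where they change a call. In these bulk samples fewer cells of a type and less RNA per cell cannot be told apart.

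The share of spread that belonged to the replicate number varied widely among the members. In log2 signal over 48 arrays, the number accounted for 80.2% of the sum of squares of KLF13, 59.0% of KLF4, 54.5% of KLF3 and 45.9% each of KLF5 and KLF10, with KLF9 between KLF3 and those, against a median of 22.4% over all genes tested. The treatment-by-time group accounted for 86.6% of KLF6, 79.8% of KLF2, 71.3% of KLF7 and 61.5% of KLF11, against a median of 34.6%. KLF3, KLF4, KLF9 and KLF13 were highest in replicate 3 in 12 of 12 groups, and KLF5 and KLF10 in 11 of 12. KLF6 was highest there in 3 of 12 groups and KLF2 in 2 of 12.

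**Figure D1:**
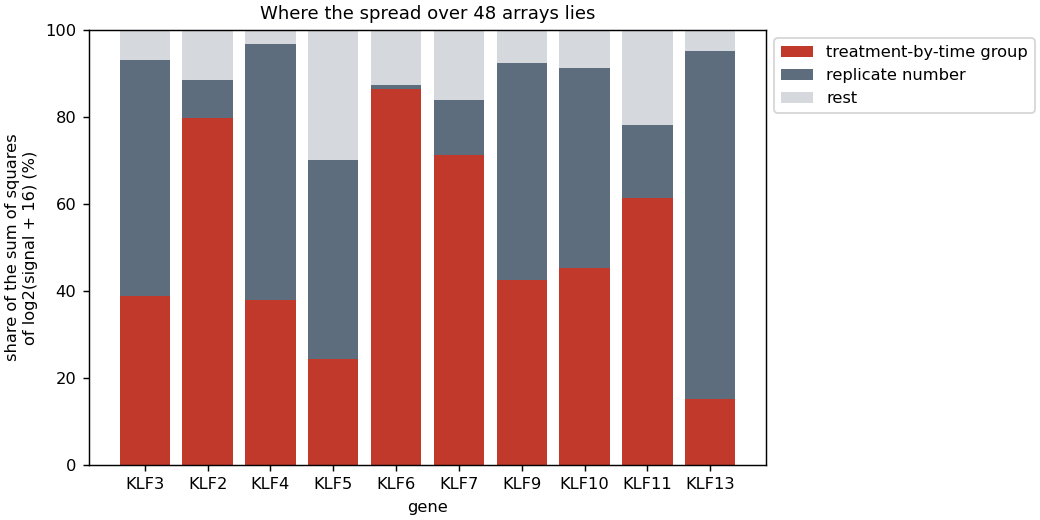
Share of the sum of squares of log2(signal + 16) over 48 arrays (vertical axis, percent) that lies between the 12 treatment-by-time groups (red), between the 4 replicate numbers (slate) and in the rest (grey), for each KLF gene. KLF6 has the largest group share of the 10 (86.6%) and KLF13 the largest replicate share (80.2%).

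After 1 h the KLF response called in the plain fit was a rise in KLF6. KLF4 and KLF3 with both treatments, and KLF2 with Ind/GSK, were called higher only with the block. Of the 10 members 9 lay above vehicle with GS-5759 and 8 with Ind/GSK. Limma called 1 of 10 members with each treatment at 1 h, KLF6, and it was higher. Over all genes 0.271% were called with GS-5759 in either direction (0.257% higher) and 1.83% with Ind/GSK (0.451% higher). With the block 3 of 10 members were called with GS-5759, against 1.35% of all genes (0.999% higher), and 4 of 10 with Ind/GSK, against 18.1% of all genes (2.28% higher), all of them higher. The members called were the same after either scaling joined to the block, while the calls with Ind/GSK over all genes numbered 627 (496 higher, 131 lower) after 75th percentile centring and 561 (346 higher, 215 lower) after quantile normalization, in place of 2608 (328 higher, 2280 lower). The median log2 difference of the 10 members was 0.31 with GS-5759, where that of all genes was -0.02, and 0.19 with Ind/GSK, where that of all genes was -0.10. The members were chosen with earlier results of these data known. Shares and medians over all genes, here and below, are thus no test of the family. Centring each array on its 75th percentile moved the Ind/GSK median of all genes to 0.02 and turned 65 higher and 199 lower calls into 196 higher and 15 lower. KLF6 was the only member called there too, at 0.87 with Ind/GSK. After quantile normalization the calls with GS-5759 were 38 higher and 8 lower.

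KLF6 encodes an activator whose gene is induced early by many stimuli. At 1 h its signal was 5692, 5512, 6836 and 4959 with GS-5759, then 5313, 4928, 7008 and 5316 with Ind/GSK, and 2952, 3065, 4059 and 3277 with vehicle (replicates 1 to 4). All treated arrays of both kinds lay above all vehicle arrays, as 1.24% of all genes did with GS-5759 and 1.35% with Ind/GSK. The log2 difference from vehicle was 0.78 ± 0.11 with GS-5759 (SE, n = 4 arrays a group; 1.72-fold; adjusted p = 1.05e-05 by limma) and 0.75 ± 0.11 with Ind/GSK (1.68-fold; adjusted p = 2.62e-05). Without the arrays numbered 3 these differences were 0.79 and 0.74, both called.

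KLF6 stayed above vehicle at 2 h and was near it later. Its signal at 2 h was 5188, 4449, 4652 and 4133 with GS-5759, then 4952, 3990, 4475 and 3777 with Ind/GSK, and 2939, 3281, 3107 and 2905 with vehicle, again without overlap, as for 2.98% of all genes with GS-5759 and 1.96% with Ind/GSK. The log2 rise was 0.58 ± 0.11 with GS-5759 (adjusted p = 0.000387) and 0.48 ± 0.11 with Ind/GSK (adjusted p = 0.00444). At 6 h the differences were 0.18 and 0.15, and at 18 h 0.05 and 0.06, none called. All 4 calls at 1 and 2 h held when any 1 array of the groups compared was left out. With only the groups compared in the fit, which leaves fewer arrays to estimate the spread, GS-5759 at 2 h was still called (adjusted p = 0.0225), and the other calls were lost at adjusted p = 0.133 for GS-5759 at 1 h, 0.253 for Ind/GSK at 1 h and 0.104 for Ind/GSK at 2 h.

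KLF6 had 5 single-symbol probe sets, and all 5 were above vehicle with both treatments at 1 and 2 h. At 1 h the other 4 gave log2 differences of 0.46 to 0.95 with GS-5759 and 0.37 to 0.84 with Ind/GSK. Tested over all probe sets, 4 of the 5 were called at both times with both treatments. The exception, 211610_at, had a mean signal of 129 and adjusted p values of 0.142 to 0.547.

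KLF4, an activator known for its part in epithelial differentiation and barrier formation, had the largest differences from vehicle of any member at 1 and 2 h, with the largest spread between replicate numbers as well. At 1 h its signal was 2314, 1153, 4479 and 907 with GS-5759, then 1916, 837, 4640 and 978 with Ind/GSK, and 731, 372, 2548 and 320 with vehicle. The groups overlapped through the vehicle array numbered 3 alone, and within every number both treated arrays were above the vehicle array, as for 7.16% of all genes with GS-5759 and 4.38% with Ind/GSK. Same-numbered arrays differed by 1.75 to 3.12-fold with GS-5759 and by 1.82 to 2.95-fold with Ind/GSK. The log2 difference was 1.38 ± 0.75 with GS-5759 (2.59-fold; adjusted p = 1.00) and 1.23 ± 0.75 with Ind/GSK (2.35-fold; adjusted p = 0.380), neither called. With the block the SE was 0.18 and both were called (adjusted p = 9.74e-07 and 1.03e-05).

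At 2 h KLF4 signal was 1396, 765, 2996 and 623 with GS-5759, then 1347, 547, 3100 and 596 with Ind/GSK, and 592, 309, 2011 and 242 with vehicle. The difference was 1.09 with GS-5759 (2.13-fold; adjusted p = 0.638, with the block 2.27e-05) and 0.96 with Ind/GSK (1.94-fold; adjusted p = 0.669, with the block 0.00018). A difference of the same sign in all 4 numbers is itself common at 2 h: 15.1% of all genes were higher in all 4 pairs with GS-5759 and 8.56% with Ind/GSK. Without the arrays numbered 3, and without the block, the differences were 1.56 and 1.36 at 1 h and 1.26 and 1.07 at 2 h, none called. The second probe set, at a mean signal of 107, gave 0.94 and 0.84 at 1 h and 0.78 and 0.64 at 2 h. By 6 h KLF4 was at -0.07 and -0.04 from vehicle, uncalled in each fit.

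**Figure D2:**
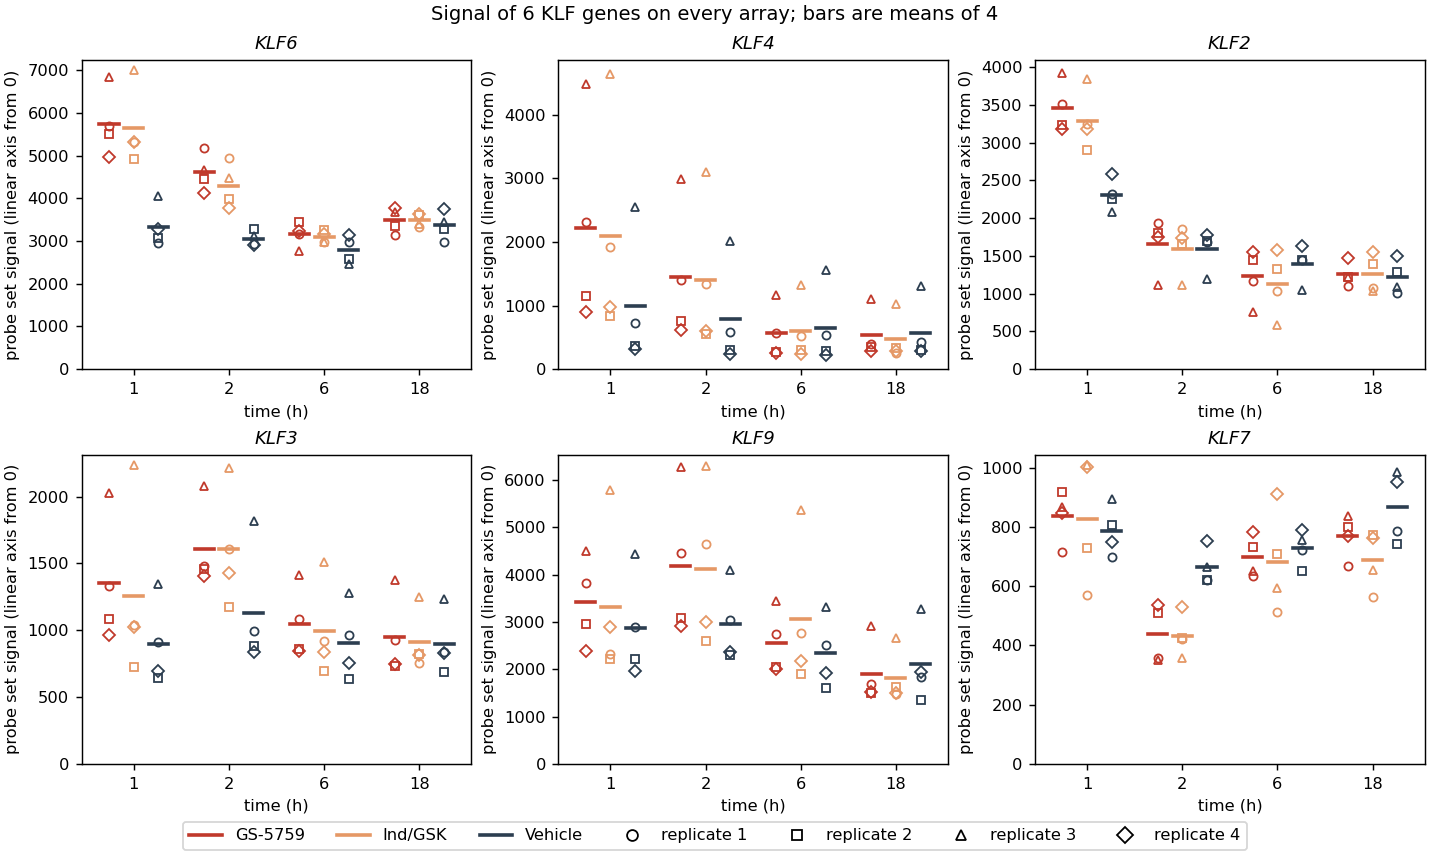
Probe set signal (vertical axes, linear from 0) on each of the 4 arrays of a group, by time in hours, for KLF6, KLF4, KLF2, KLF3, KLF9 and KLF7; colours are GS-5759, Ind/GSK and vehicle, symbols the replicate number and bars the mean of 4. KLF6 separates by treatment at 1 and 2 h, KLF7 lies below vehicle at 2 h, and in KLF4, KLF3 and KLF9 the triangles of replicate 3 stand highest in every group.

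KLF2, an activator best known as a flow-induced factor of endothelium, lay above vehicle at 1 h without a call in the plain fit. Its signal was 3507, 3236, 3927 and 3181 with GS-5759, then 3243, 2904, 3841 and 3186 with Ind/GSK, and 2326, 2251, 2087 and 2579 with vehicle. All treated arrays lay above all vehicle arrays, as for 1.24% of all genes with GS-5759 and 1.35% with Ind/GSK. The log2 difference was 0.58 ± 0.22 with GS-5759 (1.49-fold; adjusted p = 0.715) and 0.51 ± 0.22 with Ind/GSK (1.42-fold; adjusted p = 0.204). With the block Ind/GSK was called (adjusted p = 0.0338) and GS-5759 was not (adjusted p = 0.079). Without the arrays numbered 3 the differences were 0.47 and 0.38, neither called in the plain fit. The difference between the treatments was 0.07, with a 95% interval from -0.36 to 0.51. At 2 h KLF2 was 0.04 and -0.01 from vehicle, and at 6 h -0.21 and -0.37, lower in all 4 numbers with both treatments, as for 17.9% and 27.4% of all genes, and uncalled in each fit. The 6 h value with Ind/GSK was -0.22 without the arrays numbered 3. The other probe set of KLF2 was below the filter, at a mean signal of 70.1.

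KLF7, an activator studied mostly in neurons and in fat cells, was the 1 member called lower after treatment, and that was at 2 h. Limma called 2 of 10 members with each treatment at 2 h, KLF6 higher and KLF7 lower, against 2.43% of all genes with GS-5759 (1.6% higher, 0.833% lower) and 3.49% with Ind/GSK (1.34% higher, 2.15% lower). As at 1 h, those shares are no test of the family. After quantile normalization the calls over all genes split into 220 higher and 233 lower with GS-5759 and 222 higher and 229 lower with Ind/GSK. KLF7 signal was 358, 511, 351 and 537 with GS-5759, then 421, 425, 359 and 529 with Ind/GSK, and 621, 623, 665 and 751 with vehicle. All treated arrays lay below all vehicle arrays, as 5.39% of all genes did with GS-5759 and 5.77% with Ind/GSK. KLF7 fell to 0.659 times vehicle with GS-5759 (log2 -0.60 ± 0.16, adjusted p = 0.0259) and to 0.656 times vehicle with Ind/GSK (log2 -0.61 ± 0.16, adjusted p = 0.0207). With the block the adjusted p was 0.000628 and 0.000495.

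The KLF7 calls depended on which arrays were in the fit. With GS-5759 the call was lost without vehicle replicate 3 or 4 or GS-5759 replicate 1 or 3 (adjusted p up to 0.141), and with Ind/GSK without vehicle replicate 4 or Ind/GSK replicate 1 or 3 (up to 0.112), while the difference stayed between -0.70 and -0.51 with GS-5759 and between -0.71 and -0.52 with Ind/GSK. Leaving out all arrays numbered 3 gave -0.51 and -0.52 (adjusted p = 0.182 and 0.166), and with only the groups compared in the fit the adjusted p was 0.169 and 0.103. The main probe set, 240432_x_at, is of a kind whose probes may match other transcripts. Of the 4 other KLF7 probe sets, 204334_at (-0.49 and -0.59) and 1555420_a_at (-0.47 and -0.58) were called over all probe sets at 2 h with both treatments. 238482_at (0.05 and -0.17) and 238517_at (0.02 and 0.06) were not called. At 1 h KLF7 differed from vehicle by 0.09 and 0.04, at 6 h by -0.06 and -0.12 and at 18 h by -0.16 and -0.33, none called.

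KLF5, an activator abundant in proliferating epithelium, had no call with either treatment at any time in any of the fits run. Its largest differences were 0.28 with GS-5759 at 1 h and -0.26 with GS-5759 at 6 h, and its group means stayed between 1802 (GS-5759, 6 h) and 2503 (vehicle, 2 h).

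KLF3, the CtBP-binding repressor, was higher than vehicle in all 4 numbers at 1 and 2 h. At 1 h so were 7.16% of all genes with GS-5759 and 4.38% with Ind/GSK, and at 2 h 15.1% and 8.56%. KLF3 was called only with the block or, at 2 h, without the arrays numbered 3. At 2 h its signal was 1483, 1456, 2077 and 1408 with GS-5759, then 1609, 1176, 2214 and 1431 with Ind/GSK, and 993, 879, 1818 and 835 with vehicle. The groups overlapped only through the vehicle array numbered 3. The difference was 0.56 ± 0.30 with GS-5759 (1.47-fold; adjusted p = 0.475) and 0.54 ± 0.30 with Ind/GSK (1.45-fold; adjusted p = 0.456). With the block the adjusted p was 0.00024 and 0.000357, and without the arrays numbered 3 the differences were 0.68 and 0.62 (adjusted p = 0.0153 and 0.0322).

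At 1 h the KLF3 difference was 0.58 with GS-5759 and 0.41 with Ind/GSK (adjusted p = 1.00 and 0.479, with the block 0.000489 and 0.0089), and without the arrays numbered 3 it was 0.58 and 0.30, uncalled. The other 3 probe sets of KLF3 gave smaller values at 1 h, 0.16 to 0.24 with GS-5759 and 0.00 to 0.10 with Ind/GSK. At 2 h they gave 0.34 to 0.52 and 0.31 to 0.46. The 1 h value of KLF3 was thus shared less among its probe sets than the 2 h value.

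Of the SIN3A-binding members, KLF9 was higher at 2 h in all 4 numbers, as for 15.1% of all genes with GS-5759 and 8.56% with Ind/GSK. Its signal was 4457, 3085, 6268 and 2915 with GS-5759, then 4642, 2592, 6284 and 2991 with Ind/GSK, and 3032, 2305, 4093 and 2362 with vehicle, so that the groups overlapped. The difference was 0.47 ± 0.34 with GS-5759 (1.39-fold; adjusted p = 0.682) and 0.43 ± 0.34 with Ind/GSK (1.35-fold; adjusted p = 0.678). With the block both were called (adjusted p = 0.0154 and 0.0222), which made 5 of 10 members called at 2 h with each treatment under the block, against 9.33% of all genes with GS-5759 and 11.9% with Ind/GSK. Without the arrays numbered 3 the differences were 0.42 and 0.37, neither called in the plain fit. Another KLF9 probe set, 203542_s_at, gave 0.65 and 0.63 at 2 h, whereas 230636_s_at gave 0.02 and 0.00.

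KLF10 (induced by TGF-beta in bone cells), KLF11 and KLF13 had no call with either treatment in any of the fits run. Their largest differences were 0.34 for KLF10 with GS-5759 at 1 h, -0.31 for KLF11 with Ind/GSK at 1 h and -0.25 for KLF13 with Ind/GSK at 18 h. The 95% interval of the KLF10 value ran from -0.28 to 0.97 in the plain fit, so a change of that size could not be detected there. KLF11 signal with Ind/GSK at 1 h was 340, 498, 738 and 749, against 658, 618, 750 and 750 with vehicle, and most of its difference came from replicate 1. KLF13 was above vehicle in all 4 numbers at 2 h, by 1.11 to 1.21-fold with GS-5759 and 1.07 to 1.22-fold with Ind/GSK. So were 15.1% and 8.56% of all genes, and KLF13 was uncalled also with the block (adjusted p = 0.141 and 0.233). At 18 h it was below vehicle in all 4 numbers with both treatments, as for 10% and 9.76% of all genes. Its log2 differences there were -0.26 to -0.12 with GS-5759 and -0.44 to -0.08 with Ind/GSK.

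**Figure D3:**
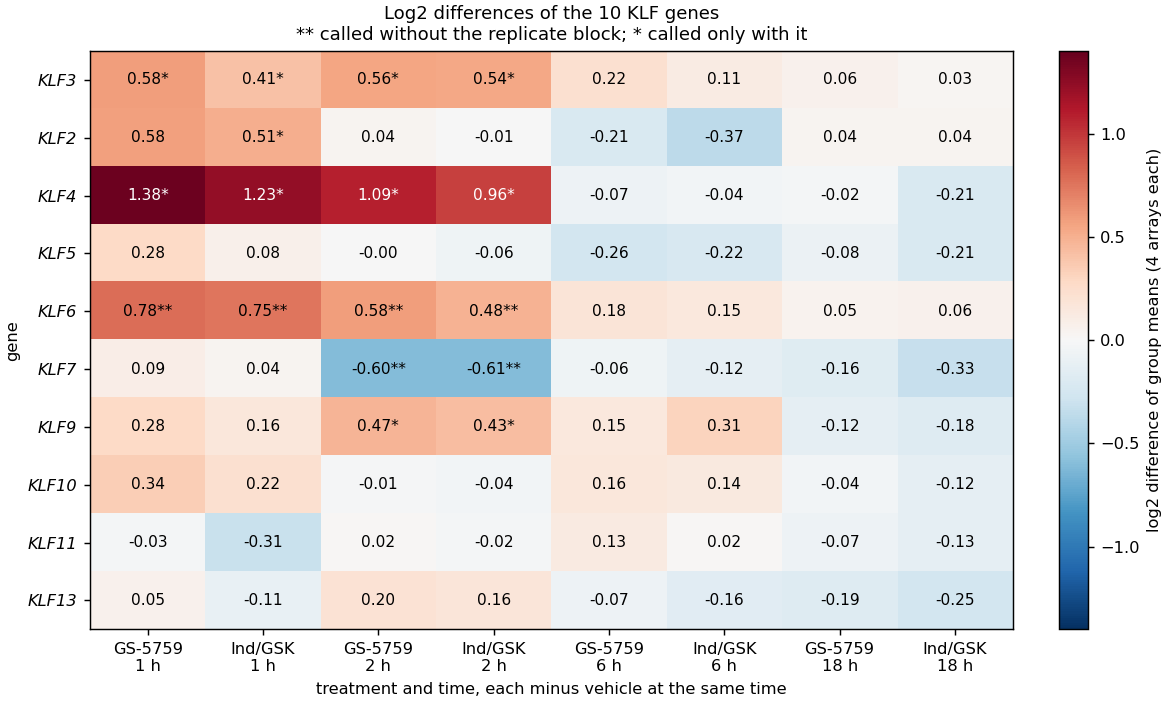
Log2 difference from vehicle at the same time for each KLF gene (rows) with GS-5759 and Ind/GSK at 1, 2, 6 and 18 h (columns), from means of 4 arrays a group. Colour gives the same value as the number; 2 asterisks mark a call without the replicate block and 1 asterisk a call only with it. Calls lie at 1 and 2 h, and KLF7 at 2 h is the only called value below 0.

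At 6 and 18 h no member was called with either treatment in the plain fit or with the block. At 6 h 1.58% of all genes were called with GS-5759 and 3.73% with Ind/GSK (10.6% and 17.8% with the block). At 18 h the shares were 0% and 0.0486% (0.146% and 1.88% with the block). For GS-5759 at 18 h limma called 0 genes (462 at an unadjusted p under 0.05, 21 with the block). KLF9 with Ind/GSK at 6 h (0.31, higher in all 4 numbers, as for 9.74% of all genes) was called only where the block was joined to 75th percentile centring (adjusted p = 0.0491) or to quantile normalization (adjusted p = 0.024). Its same-numbered differences were 0.14, 0.24, 0.69 and 0.18 in replicates 1 to 4, and without the arrays numbered 3 the value was 0.19.

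**Figure D4:**
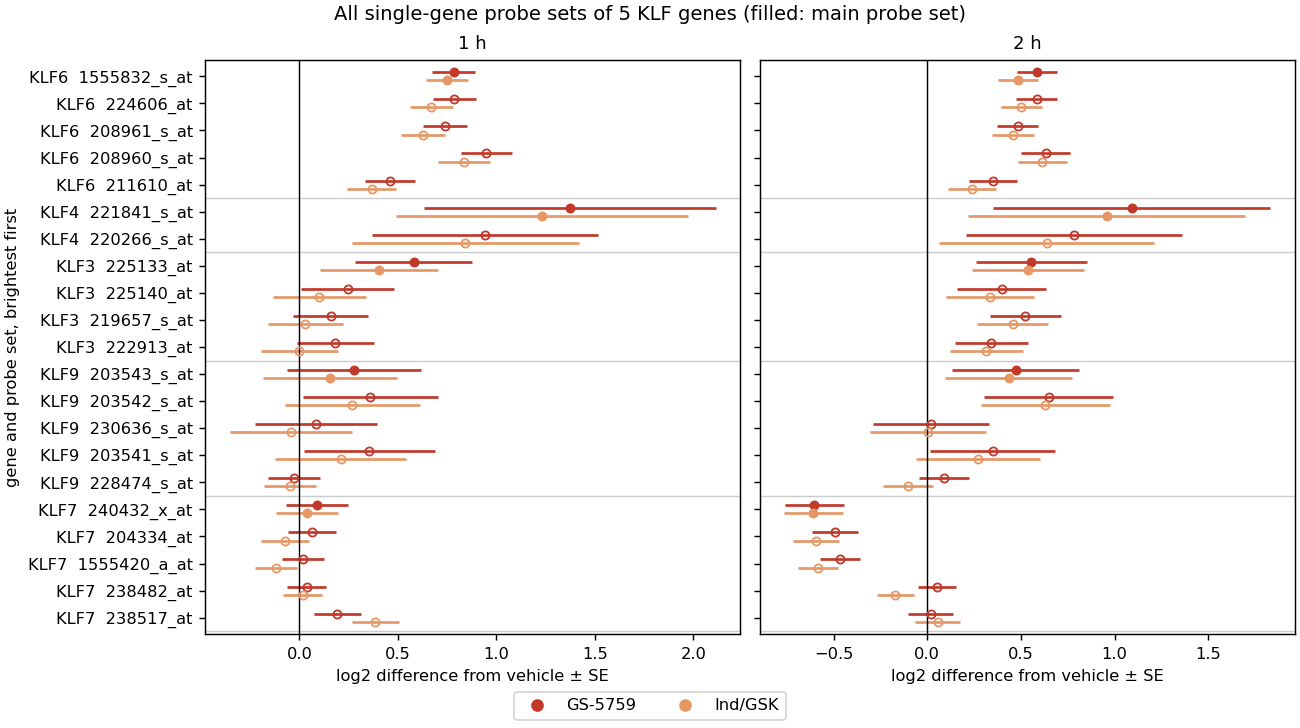
Log2 difference from vehicle with its SE (horizontal axes) at 1 h (left) and 2 h (right) for each single-symbol probe set of KLF6, KLF4, KLF3, KLF9 and KLF7; red is GS-5759, orange Ind/GSK, and filled points are the main probe sets. The 5 probe sets of KLF6 lie above 0 at both times, while 3 of the 5 of KLF7 lie below 0 at 2 h and 2 lie near it.

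No member was called as different between the 2 treatments. GS-5759 minus Ind/GSK, averaged over 4 times, was called for 0 of 10 members in the plain fit and with the block, against 0.0902% and 14.3% of all genes. The mean difference ran from 0.01 (KLF9) to 0.13 (KLF11), positive for all 10, where the median of all genes was 0.06. The common sign depended on scaling: after 75th percentile centring the median of all genes was -0.01, KLF6 was at -0.03 and KLF9 at -0.06. The calls over all genes were 6 higher and 7 lower, and after that centring 0 higher and 84 lower. With the block they were 1890 higher and 170 lower, after centring 14 and 260, and after quantile normalization 27 and 106. For KLF6 the mean difference was 0.04 with a 95% interval from -0.07 to 0.14, and for KLF7 0.07 from -0.09 to 0.23. At single times KLF6 differed by 0.03 at 1 h (interval -0.18 to 0.24) and KLF7 by 0.01 at 2 h (-0.31 to 0.32). For KLF4 the interval of the mean ran from -0.65 to 0.87 and bounds little. At single times 0 of 10 members and 0% of all genes were called at 1, 2, 6 or 18 h, although 855, 273, 468 and 54 genes had an unadjusted p under 0.05. Both contrasts with vehicle share the vehicle arrays, so likeness between them is not independent.

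Responses were also compared between neighbouring times, on the mean of both treatments minus vehicle. No member was called in the plain fit from 1 to 2 h, 2 to 6 h or 6 to 18 h, where 0.132%, 0.569% and 0.361% of all genes were. KLF7 moved most from 1 to 2 h, by -0.67 ± 0.19 (adjusted p = 0.170), and came back by 0.51 ± 0.19 from 2 to 6 h (adjusted p = 0.385). With the block both KLF7 steps were called (adjusted p = 0.00752 and 0.0355), against 2.38% and 4.89% of all genes, as was the fall of KLF4 from 2 to 6 h by 1.08 on the log2 scale (adjusted p = 0.00145). The KLF6 response fell by 0.37 from 2 to 6 h, uncalled in both fits (adjusted p = 0.298, with the block 0.0878).

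Vehicle cells changed over time too, and KLF11 was the member called there. KLF11 signal with vehicle was 1036, 860, 937 and 939 at 18 h, against 563, 504, 647 and 605 at 6 h, with no overlap, as for 9.9% of all genes. It rose by 0.69 ± 0.16 (1.61-fold; adjusted p = 0.0029), where 11.5% of all genes were called (7.97% higher, and 29.1% in either direction with the block), so 1 of 10 members lies near the background. After 75th percentile centring the calls over all genes were 825 higher and 950 lower. The second probe set of KLF11 gave 0.35. In treated cells KLF11 was also high at 18 h, at 899 ± 60.4 with GS-5759 and 861 ± 34.3 with Ind/GSK, against 943 ± 71.9 with vehicle (SD, n = 4). KLF6 in vehicle was 0.27 higher at 18 h than at 6 h, called only with the block (adjusted p = 0.0924, with the block 0.0468), and not where the block was joined to either scaling. Without the arrays numbered 3 it was 0.20.

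KLF2 in vehicle averaged 2311, 1589, 1397 and 1224 at 1, 2, 6 and 18 h. The step from 1 to 2 h was -0.55 ± 0.22 (adjusted p = 0.165, with the block 0.0238, without the arrays numbered 3 0.0526, and uncalled where the block was joined to either scaling), and all arrays at 2 h lay below those at 1 h, as for 5.25% of all genes. KLF3 in vehicle was 0.31 higher at 2 h than at 1 h, called only with the block (adjusted p = 0.681, with the block 0.0377). KLF10 in vehicle fell by 0.58 from 2 to 6 h, called only with the block (adjusted p = 0.662, with the block 0.00602). In the plain fit 0 of 10 members were called from 1 to 2 h, against 2.57% of all genes (15.7% with the block), and 0 of 10 from 2 to 6 h, against 0.305% (5.06% with the block).

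**Figure D5:**
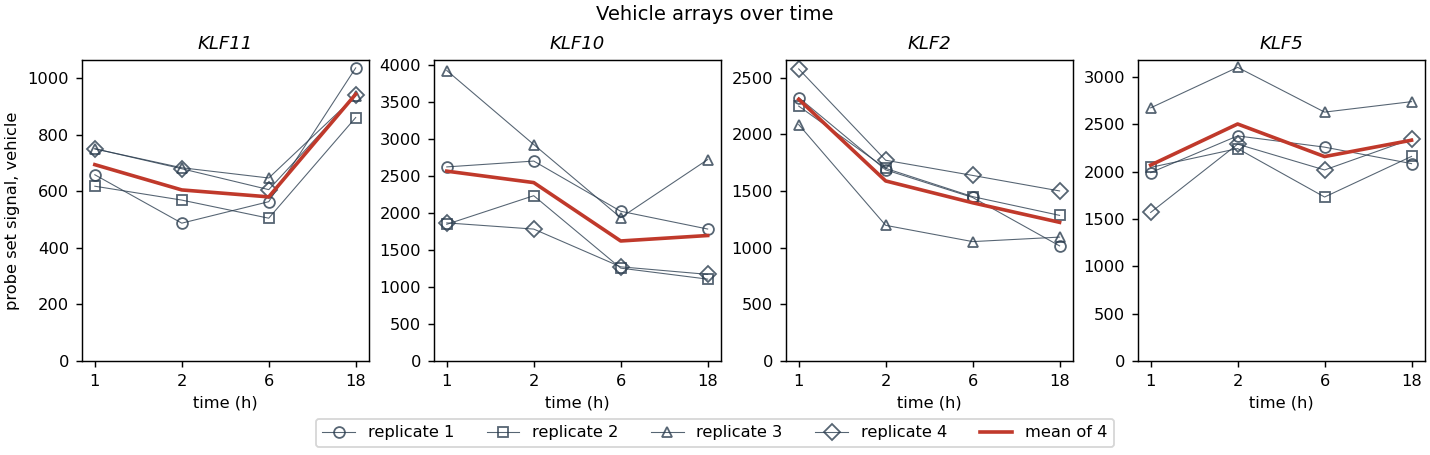
Probe set signal on vehicle arrays (vertical axes, linear from 0) at 1, 2, 6 and 18 h, set at even steps, for KLF11, KLF10, KLF2 and KLF5; thin lines join arrays of 1 replicate number and the red line is the mean of 4. KLF11 is highest at 18 h in all 4 numbers, and KLF2 is highest at 1 h in all 4.

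Patterns over the 12 group means are given as descriptions, since the points share replicate numbers and vehicle groups. KLF6 was most like ATF3 (Pearson r = 0.97), ZFP36L1 (0.97) and SNAI2 (0.96) among tested genes outside the family. ATF3 encodes a stress-induced factor, ZFP36L1 an RNA-binding protein that speeds mRNA decay and SNAI2 a repressor of epithelial genes. KLF7 was most like HMGA2 (0.95), which encodes a chromatin protein, DCP1B (0.92), an mRNA decapping factor, and TNFSF9 (0.91), a ligand of the TNF family. HMGA2 was at -0.73 with GS-5759 and -0.77 with Ind/GSK at 2 h, in log2 difference from vehicle. Within the family KLF4 and KLF6 had r = 0.93 and KLF4 and KLF10 0.89, while KLF7 had r = -0.73 with KLF3.

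Other genes of the KLF and SP family gave no call: of 16 listed, 15 were measured and 10 tested, and 0 of 10 were called in each of the 8 comparisons with vehicle in the plain fit. In those comparisons the plain fit called from 0% (GS-5759 at 18 h) to 3.73% (Ind/GSK at 6 h) of all genes. With the block SP8 was called with Ind/GSK at 1 h, KLF12 and KLF15 with GS-5759 at 2 h and KLF15 with both treatments at 6 h, all higher. Over all genes the block called 18.1% with Ind/GSK at 1 h and 9.33% with GS-5759 at 2 h. At 6 h the shares were 10.6% with GS-5759 and 17.8% with Ind/GSK. The list was chosen with earlier results of these data known, so those shares are no test of it. The median log2 differences of the 10 tested genes lay between -0.12 and 0.01, near those of all genes, from -0.10 to 0.01.

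Among 14 cofactors and ubiquitin ligases of KLF proteins, all tested, CTBP1, which encodes the corepressor that KLF3 recruits, was lower with Ind/GSK at 1 h (-0.23 ± 0.05, adjusted p = 0.00533) and at 6 h (-0.18 ± 0.05, adjusted p = 0.0205). HDAC3, a histone deacetylase, was lower with Ind/GSK at 6 h (-0.24 ± 0.05, adjusted p = 0.00217). Over all genes 1.38% were called lower with Ind/GSK at 1 h and 2.7% at 6 h. This list too was chosen with earlier results of these data known, so those shares are no test of it. With GS-5759 none of the 14 was called without the block, and CTBP1 was at -0.11 at 1 h. HDAC3 was called lower with GS-5759 at 6 h with the block, as 4.58% of all genes were. The Ind/GSK arrays at 1 h were dimmer as a whole, their 75th percentile signals averaging 546 where those of GS-5759 averaged 589 and of vehicle 595. After 75th percentile centring CTBP1 was at -0.11 at 1 h (adjusted p = 0.293) and -0.15 at 6 h (adjusted p = 0.0574), no longer called, and HDAC3 at -0.21 (adjusted p = 0.0073).

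Of 12 regulators known to act upstream of KLF genes in other cells, 11 were tested and 2 were called higher with both treatments at 2 h. Over all genes 1.6% were called higher with GS-5759 and 1.34% with Ind/GSK. The regulators were listed with earlier results of these data known, so those shares are no test of the list. MEF2D, a factor that drives KLF2 and KLF4 in endothelium, rose by 0.53 with GS-5759 (adjusted p = 0.0261) and 0.52 with Ind/GSK (adjusted p = 0.0244). CREM, a cAMP-responsive relative of CREB, rose by 0.47 (adjusted p = 0.0126) and 0.43 (adjusted p = 0.0242). CREM without the arrays numbered 3 was at 0.35 and 0.31, neither called, and MEF2D at 0.47 and 0.50 (adjusted p = 0.05 and 0.0347). None of the 11 was called at 1, 6 or 18 h without the block.

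Of 18 genes known as KLF targets in other cell types, 13 were tested. At 2 h 2 of them were called with each treatment, in opposite directions. Over all genes 2.43% were called with GS-5759 and 3.49% with Ind/GSK. The targets were listed with earlier results of these data known, so those shares are no test of the list. THBD, which encodes the anticoagulant receptor thrombomodulin and is induced by KLF2 in endothelium, averaged 1562 ± 534 with GS-5759 and 1362 ± 395 with Ind/GSK, against 653 ± 110 with vehicle (SD, n = 4). It rose 2.29-fold with GS-5759 (adjusted p = 0.000583) and 2.02-fold with Ind/GSK (adjusted p = 0.00444). TXNIP, an inhibitor of thioredoxin, averaged 1230 ± 297 with GS-5759 and 1255 ± 313 with Ind/GSK, against 3399 ± 373 with vehicle. It fell to 0.357 and 0.364 times vehicle (adjusted p = 1.82e-05 and 2.59e-05). With only the groups compared in the fit TXNIP was still called (adjusted p = 0.0135 and 0.0199), while THBD was not (adjusted p = 0.0603 and 0.0852). TXNIP was also called lower in vehicle from 1 to 2 h, as 1.69% of all genes were. Its response was called back up from 2 to 6 h, as 0.312% of all genes were. The median over the 13 tested targets at 2 h was 0.14 with GS-5759 and 0.03 with Ind/GSK, where that of all genes was -0.01 and -0.05.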

How the data were processed

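RNA from 48 BEAS-2B samples was hybridised as biotin-labelled cRNA to 1-colour Affymetrix arrays, 4 per treatment and time. The deposited values are linear PLIER intensities that the authors made in Affymetrix Expression Console (named in the submitters' processing notes). Software versions and any scaling between arrays are not given in the sources used here. These values were used as log2(value + 16). Array medians lay between 7.00 and 7.17 on that scale, and the number of arrays limits the precision. Of 54675 probe sets, 41091 had 1 symbol in the platform annotation, 1801 had several, 11721 had none and 62 were controls. Each gene was its probe set of highest mean, and genes above the 40th percentile of that mean were tested.

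Limma 3.58.1 (lmFit and eBayes in R 4.3.3) was fitted to 12 group means over all arrays with 36 residual degrees of freedom. P-values were adjusted by Benjamini-Hochberg over 14409 genes within each of 15 comparisons, with calls at an adjusted p under 0.05. Intervals are 95% intervals of that fit. Figures were drawn with matplotlib 3.10.9 in Python 3.11.15. The plain fit was tested on simulated data with independent noise on each array. That check does not cover deviations shared by arrays of the same number. All 10 KLF genes are named by rule. Deviations of same-numbered arrays in the comparisons with vehicle correlated from 0.20 to 0.93 in all pairs, above the minimum of 0.1 used. By that minimum the replicate number was taken to pair arrays, as a feature of the data and not of the labels. Those of arrays with different numbers correlated from -0.82 to 0.73, so the ranges overlapped. Alternatives were 2 other pseudocounts, 2 scalings, no filter, every probe set tested, only the groups compared, the replicate block, each array left out, and 3 added after seeing the data (the block after each scaling, and all arrays numbered 3 left out). The members and the 4 other gene lists were chosen with earlier results of these data known.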

Additional observations from a re-analysis of the deposited data

Results flagged for a closer look

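In 5 of 120 sets of 4 arrays (10 genes by 12 groups) 1 array stood apart from the other 3 by a gap above Dixon's critical share of the range. Chance flags about 1 in 20 such sets. All 5 arrays were numbered 3, and 4 were the highest of their set and 1 the lowest. KLF3 with GS-5759 at 2 h had 2077 in replicate 3, against 1408 to 1483 in the others (gap 0.866 of the range). KLF5 with GS-5759 at 6 h had 2250 there, against 1615 to 1696 (0.851). KLF9 had 2921 there with GS-5759 at 18 h, against 1502 to 1682 (0.830), and 2658 with Ind/GSK at 18 h, against 1468 to 1620 (0.834). KLF2 with vehicle at 2 h had 1197 there, against 1687 to 1772 (0.875). The same 12 arrays hold the high KRT5, KRT19 and CDH1 signals, and the part of that difference in these values was not tested.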

How the results depend on the processing

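No called KLF difference changed sign, while uncalled ones did in 9 of 150 results after 75th percentile centring, 8 after quantile normalization and 13 without the arrays numbered 3. Pseudocounts of 1 or 64, no filter and testing every probe set left all 150 gene-by-comparison results on their side of the threshold. Members called were 1 and 1 at 1 h and 2 and 2 at 2 h (GS-5759, Ind/GSK), 1 in vehicle from 6 to 18 h and 0 elsewhere. With only the groups compared in the fit they were 0 and 0 at 1 h and 1 and 0 at 2 h. With the replicate block, alone or after either scaling, they were 3 and 4 at 1 h and 5 and 5 at 2 h, and 1 (KLF7) for the response from 1 to 2 h. The block alone gave 2 for the response from 2 to 6 h (3 after 75th percentile centring, 4 after quantile normalization), 2 for vehicle from 1 to 2 h (KLF2 and KLF3; 2, KLF3 and KLF5, and 1, KLF3), 1 for vehicle from 2 to 6 h (2 and 3) and 2 for vehicle from 6 to 18 h (1 and 1, KLF11). After either scaling it also gave 1 with Ind/GSK at 6 h (KLF9). Leaving out 1 array gave 1 to 2 members called at 2 h with either treatment. Without all arrays numbered 3 the count stayed 2 at 2 h, with KLF3 in place of KLF7. Causes of these changes were not tested.

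Genes called of all tested numbered 39 and 264 at 1 h and 350 and 503 at 2 h, against 195 and 2608, then 1344 and 1708, with the block. With the block after 75th percentile centring they numbered 231 and 627, then 1977 and 1779, and after quantile normalization 237 and 561, then 1787 and 1744. With only the groups compared they numbered 18 and 8, then 104 and 70. Quantile normalization gave 103 with Ind/GSK at 1 h. Without all arrays numbered 3 the genes called numbered 50 and 311, then 356 and 360. With the block alone, after centring and after quantile normalization, 704, 1097 and 1158 were called for the response from 2 to 6 h. That response from 1 to 2 h gave 343, 357 and 333. Vehicle gave 2259, 2153 and 1367 from 1 to 2 h. It gave 729, 1057 and 1156 from 2 to 6 h, and 4188, 4580 and 4498 from 6 to 18 h.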
